A study of Mus musculus with 2 samples.

Results

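The genes described here encode subunits of the oxidative phosphorylation machinery, 78 of them in the nucleus and 13 in the mitochondrial genome. Members were chosen by name from the 31053 genes counted: symbols starting with Nduf, Uqcr, Atp5, mt- or Cox4 to Cox8, without the Ndufaf assembly factors. Of the 94 genes with these names, 91 had at least 20 unique molecular identifiers (UMIs, each marking 1 captured transcript) over both libraries. The 3 others were Cox7b2 with 0 UMIs, Cox8c with 2 and a second Atp5o identifier with 0. The nuclear members comprised 38 of complex I, 8 of complex III, 16 of complex IV and 16 of complex V, and the mitochondrial members 7, 1, 3 and 2. By its name start, Atp5s was kept among complex V, although it is a coupling factor gene and not a core subunit. Ndufa4 and its alternative form Ndufa4l2 were likewise counted with complex I by name, although Ndufa4 is found with complex IV.

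Oxidative phosphorylation passes electrons from NADH through complexes I, III and IV to oxygen, pumps protons across the inner mitochondrial membrane, and lets complex V, the ATP synthase, use that gradient. Complexes I, III, IV and V are built from subunits of both genomes, whose transcripts are made in different compartments by different polymerases. In the kidney, tubule segments that reabsorb salt are rich in mitochondria, whereas endothelial and immune cells hold fewer.

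The data are single-cell transcript counts of dissociated kidney cortex from 12-week-old mice. One library came from mice that express I-PpoI, a homing endonuclease that cuts DNA, specifically in podocytes, and one from wild-type mice. The labels give neither the promoter or Cre driver of the transgene, nor the strain, nor the number of mice behind a library. With 1 library per group, mouse, library and genotype cannot be told apart, and no test was made. Intervals (95%) of levels, shares and ratios cover counting error only. Those of a median over members are order-statistic intervals of that median. They treat the members as independent draws and are narrower than the spread of the single genes.

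There were 5268 barcodes and 37811289 UMIs from the I-PpoI mice, and 5536 barcodes and 27793633 UMIs from the wild-type mice, with 6 barcode sequences in common. Cells with at least 200 genes and at most 50% mt- UMIs were kept, which left 3949 and 3094 cells after removal of likely doublets. That limit uses member genes, and it removed 20.1% of I-PpoI barcodes and 37.1% of wild-type barcodes. Cells were clustered without any member gene, and the 27 clusters were named from marker lists. No cluster was named podocyte. Proximal tubule-like, endothelial-like and macrophage-like cells of the libraries lay mostly in different clusters. An injured proximal tubule-like cluster (181 I-PpoI cells, no wild-type cell) and an unnamed cluster led by Lcn2, Clu, Wfdc2 and Umod (197 I-PpoI cells, 1 wild-type cell) had no counterpart. The latter carried 7 of 8 thick ascending limb markers, together with genes of injured distal epithelium.

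Promoter sequences of 63 of the 78 nuclear members were found in RefSeq (GRCm38.p6), as windows from 250 bases before to 50 after the start of the gene. Those without an entry included Atp5a1, Atp5f1, Atp5s, Cox4i1, Cox4i2, Cox6a2, Cox6c, Ndufa2, Ndufa4l2, Ndufb9, Ndufs1, Uqcrb, Uqcrc2 and Uqcrq. The windows were searched on both strands for a motif of NRF1, a nuclear respiratory factor (GCGCA, any base, then GCGC), for the ETS core bound by GABP (CCGGAAG) and for the half-site of estrogen-related receptors (AAGGTCA). The NRF1 motif was in 15 of the 63 members (23.8%), against 5.19% of all 27025 genes in the table. The ETS core was in 14 members (22.2%, against 9.93% of all) and the receptor half-site in 7 (11.1%, against 5.38% of all). Both NRF1 and ETS motifs stood in 3 members, Atp5h, Atp5k and Cox6a1, and 36 members held none of the 3 motifs. These matches are letters in a window and not measured binding.

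The windows shown run from 250 bases before to 30 after the start. They belong to the 3 genes of the ATP synthase c subunit, whose shares differed between cell classes, and to Atp5k, which held all 3 motifs. Atp5g1, Atp5g2 and Atp5g3 encode the same mature ring protein behind different import sequences, and Atp5k encodes subunit e, which helps ATP synthase form dimers. Capitals mark motif matches, on either strand. The windows lie at chr11:96075602-96075881, chr15:102671018-102671297, chr2:73911297-73911576 and chr5:108434370-108434649, all on the minus strand of GRCm38.p6.
Atp5g1: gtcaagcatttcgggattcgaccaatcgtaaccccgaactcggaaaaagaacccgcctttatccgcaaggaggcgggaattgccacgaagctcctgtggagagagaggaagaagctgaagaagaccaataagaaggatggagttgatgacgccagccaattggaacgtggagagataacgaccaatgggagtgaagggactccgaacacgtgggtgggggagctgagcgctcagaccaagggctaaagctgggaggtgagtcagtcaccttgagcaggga
Atp5g2: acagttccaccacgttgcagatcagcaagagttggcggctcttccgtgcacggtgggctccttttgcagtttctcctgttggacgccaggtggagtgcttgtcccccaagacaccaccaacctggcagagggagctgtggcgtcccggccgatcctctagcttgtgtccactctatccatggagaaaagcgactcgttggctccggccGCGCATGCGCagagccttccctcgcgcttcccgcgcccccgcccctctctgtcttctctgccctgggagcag
Atp5g3: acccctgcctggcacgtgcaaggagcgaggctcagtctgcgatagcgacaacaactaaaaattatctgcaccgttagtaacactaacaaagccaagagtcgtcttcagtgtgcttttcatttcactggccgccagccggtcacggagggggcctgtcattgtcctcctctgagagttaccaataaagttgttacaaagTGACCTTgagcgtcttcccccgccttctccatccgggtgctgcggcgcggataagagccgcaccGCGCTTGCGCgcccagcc
Atp5k: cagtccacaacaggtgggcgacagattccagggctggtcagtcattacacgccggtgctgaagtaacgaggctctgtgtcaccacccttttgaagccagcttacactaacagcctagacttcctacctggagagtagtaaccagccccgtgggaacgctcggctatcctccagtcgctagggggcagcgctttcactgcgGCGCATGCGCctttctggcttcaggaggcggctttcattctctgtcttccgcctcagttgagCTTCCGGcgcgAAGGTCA
The Atp5g1 window held none of the 3 motifs, Atp5g2 an NRF1 match, and Atp5g3 both an NRF1 match and a receptor half-site.

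Levels ranged widely between cell classes. Nuclear members are given as a share of non-mitochondrial UMIs, so that the mt- transcripts do not enter their total, and mt- members as a share of all UMIs. Thick ascending limb-like cells, named from markers of a segment that drives salt reabsorption, were highest on both scales. Nuclear members made up 10.1% (10.0 to 10.3) of their non-mitochondrial UMIs in the I-PpoI library and 11.6% (11.6 to 11.7) in the wild-type library. The larger cluster of this class (84 and 252 cells) carried 7 markers of distal convoluted and connecting tubule beside all 8 of thick ascending limb. The class may thus mix distal segments. Proximal tubule-like cells stood at 6.14% and 5.54%, and principal cell-like cells at 5.59% and 7.82%. Mural-like cells (mesangial, mural and renin markers) followed at 2.30% and 3.14%. Fibroblast-like, T cell-like, macrophage-like, endothelial-like and B and plasma cell-like cells lay between 1.14% and 2.03% in both libraries, and neighbours in that order differed little: macrophage-like and endothelial-like wild-type cells had 1.70% (1.68 to 1.73) and 1.71% (1.69 to 1.72). Injured proximal tubule-like cells (4.04%) and the Lcn2-led cluster (3.90%) of the I-PpoI library lay between the named tubule classes and the mural-like class.

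The mt- members kept nearly the same order of classes. They made up 22.2% and 31.7% of all UMIs in thick ascending limb-like cells, 14.0% and 24.1% in proximal tubule-like cells, 10.1% and 17.3% in principal cell-like cells, and 6.69% and 10.9% in mural-like cells, I-PpoI library first. The lowest wild-type level among the classes compared was 5.84% in macrophage-like cells, and the lowest I-PpoI level was 3.15%, also in macrophage-like cells. Across classes, the nuclear and mt- shares had a Spearman correlation of 0.82 over 12 classes of the I-PpoI library and 0.72 over 9 of the wild-type library. These points share a library, its depth and its free RNA, so the value is a description. Over the single cells within a class, the correlation differed in sign between classes and libraries. It ran from -0.57 in I-PpoI fibroblast-like cells to 0.41 in I-PpoI thick ascending limb-like cells, with -0.01 and -0.06 in I-PpoI and wild-type macrophage-like cells. The relation between classes thus did not hold within each class.

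**Figure D1:**
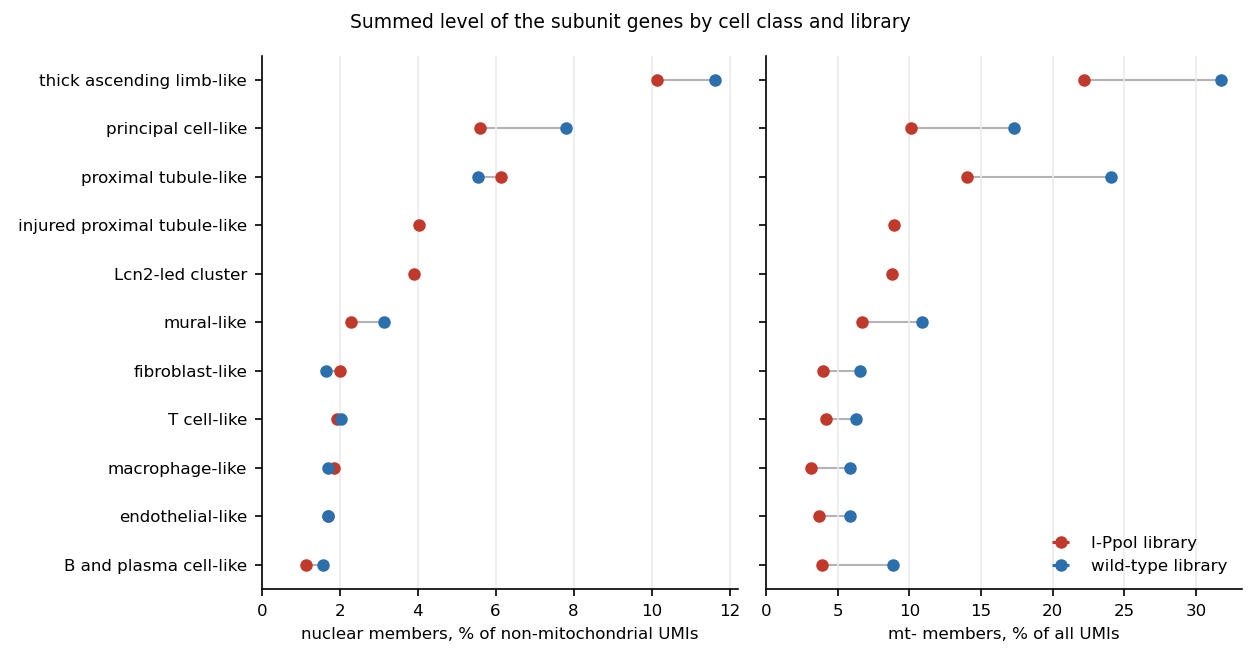
Share of non-mitochondrial UMIs from the 78 nuclear members (left) and share of all UMIs from the 13 mt- members (right), in percent, for each cell class. Red points are the I-PpoI library and blue points the wild-type library, with 95% counting intervals smaller than the points and grey lines joining the libraries. Thick ascending limb-like cells are highest in both panels, and the mt- point of the I-PpoI library lies left of the wild-type point in each of the 9 classes compared.

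In both libraries 68 of 78 nuclear members and 11 of 13 mt- members had their highest level in thick ascending limb-like cells. In both libraries 33 nuclear members stood at least 4-fold over the median class there, among them Cox5b, Cox6c, Atp5g1 and Uqcrfs1. Cox6c, a small complex IV subunit, reached 5521 and 5908 CPM (UMIs scaled to 1000000 non-mitochondrial UMIs), against medians over classes of 1182 and 767. Uqcrfs1, the Rieske iron-sulfur protein of complex III, reached 716 and 832 CPM, against medians of 118 and 110. The 4 mt- members past 4-fold were mt-Co1, mt-Nd3, mt-Nd4 and mt-Nd4l.

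A pair of nuclear members, Cox4i2 and Ndufa4l2, was highest in mural-like cells instead. Cox4i2, the alternative form of the complex IV regulatory subunit Cox4, had 53 UMIs in I-PpoI mural-like cells (105 CPM, 78.8 to 138) and 172 in wild-type mural-like cells (412 CPM, 353 to 479). No other class had more than 5 UMIs of it in a library. It was seen in 34 of 91 and 59 of 76 mural-like cells (37.4% and 77.6%), against 4 of 1604 I-PpoI macrophage-like cells (0.249%), which were deeper (median 8082 UMIs, against 5043 and 5455). Ndufa4l2, the alternative form of Ndufa4, had 345 CPM (296 to 401) and 832 CPM (747 to 924) in mural-like cells. Fibroblast-like cells had 65.8 and 123 CPM of it, and no other class had more than 13.2 CPM, which was 1 UMI. Their common counterparts were highest in thick ascending limb-like cells: Cox4i1 had 3210 and 3154 CPM there and 605 and 662 in mural-like cells, and Ndufa4 3220 and 4346 CPM there and 506 and 820 in mural-like cells.

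Of the tissue-restricted complex IV forms, Cox7a1, known from heart and skeletal muscle, was highest in the distal tubule. It had 82.3 and 234 CPM in principal cell-like cells, 115 and 125 in thick ascending limb-like cells, and 45.7 and 39.2 in proximal tubule-like cells, with the I-PpoI library first. Endothelial-like cells had 1.36 and 1.04 CPM. Its share of cells with a UMI was 59.3% in wild-type principal cell-like cells and 0.456% in wild-type endothelial-like cells, at median depths of 12384 and 3616 UMIs. Cox6b2, the form of Cox6b known from testis, had 58.8 and 54.6 CPM in fibroblast-like cells. Cox6a2 and Cox8b had 53 and 37 UMIs over all barcodes of both libraries. Cox7a2l, a factor for supercomplexes of III and IV, had, among the wild-type classes compared, a lowest level of 164 CPM in fibroblast-like cells and a highest of 346 CPM in thick ascending limb-like cells.

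The 3 c subunit genes differed in the same way in both libraries. Atp5g1 and Atp5g3 had 3072 and 2288 CPM in wild-type thick ascending limb-like cells, against 176 and 170 in wild-type endothelial-like cells. Atp5g2 had 1009 and 288 CPM in the same cells. As a share of the UMIs of all 3 genes, Atp5g2 took 15.8% in wild-type thick ascending limb-like cells, 19.2% in proximal tubule-like cells and 45.5% in endothelial-like cells. In the I-PpoI library these shares were 18.9%, 24.4% and 48.5%. Macrophage-like cells had 55.0% in the I-PpoI library and 44.4% in the wild-type library. The Lcn2-led cluster, at 34.1% (33.0 to 35.2), and injured proximal tubule-like cells, at 31.2% (30.1 to 32.3), lay above the thick ascending limb-like, proximal tubule-like and principal cell-like classes of both libraries, the highest of which had 26.5%.

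**Figure D2:**
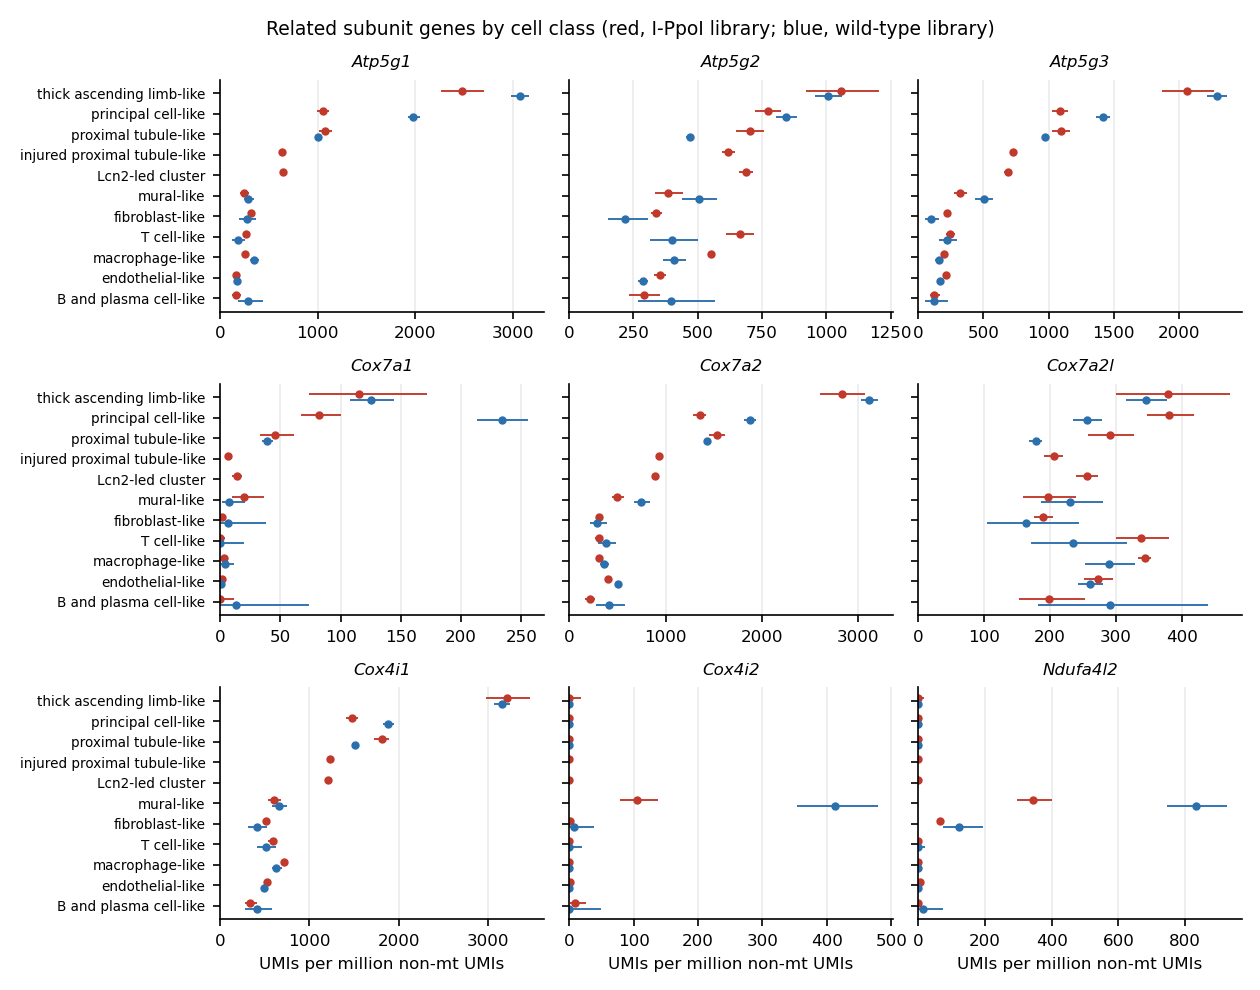
Level of 9 related subunit genes in CPM (x axes start at 0 and differ between panels), by cell class. Red points are the I-PpoI library and blue points the wild-type library, with exact Poisson intervals of 95%. Cox4i2 and Ndufa4l2 stand out in mural-like cells, Cox7a1 in distal tubule classes, and Atp5g2 falls off less steeply over the classes than Atp5g1 and Atp5g3.

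The I-PpoI library had fewer mt- transcripts in every class compared. Proximal tubule markers, read in the 8 other classes, were also lower in that library, at 0.00213% to 0.0314% of non-mitochondrial UMIs against 0.0271% to 0.114% in the wild-type library, and the part of free RNA in the mt- values was not tested. The ratio of the mt- share, I-PpoI over wild-type, lay below 1 in all 9 classes, from 0.438 in B and plasma cell-like cells to 0.70 in thick ascending limb-like cells. The B and plasma cell-like class held 30 cells of each library, and its median non-mitochondrial gene was also lower, with a value given below. In endothelial-like cells the share was 3.68% against 5.86% (ratio 0.628, 0.623 to 0.633), and in macrophage-like cells 3.15% against 5.84% (0.540, 0.535 to 0.545). All 13 mt- genes were lower in 6 of the classes. The exception elsewhere was mt-Nd6, the one member on the other strand of the mitochondrial DNA. It was higher in thick ascending limb-like (log2 ratio 0.83), B and plasma cell-like (0.28) and principal cell-like cells (0.22), and its share of mt- UMIs was 0.166% or less in these classes. The middle range of single cells overlapped: the quartiles of the mt- share were 2.76% and 5.22% in I-PpoI endothelial-like cells and 3.61% and 7.49% in wild-type ones.

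Within single clusters that held at least 20 cells of each library, the mt- ratio was below 1 in 12 of 13. Much of this count repeats the class values. The fibroblast-like, T cell-like, mural-like, principal cell-like and B and plasma cell-like classes were each a single cluster. Clusters 4, 7 and 10 were unnamed, since their leading genes held more markers of erythroid cells than of the best-matching class. The mt- ratio was 0.716 in the mixed endothelial-like cluster and 0.527 in the mixed macrophage-like cluster. In proximal tubule-like cells the class ratio was 0.582 (14.0% against 24.1%), but the clusters behind it did not share it. Cluster 15 (28 and 596 cells) had a ratio of 0.922, with 9 of 13 genes lower. Cluster 6, which held most I-PpoI cells (243) and 39 wild-type cells and was led by Aqp1, Cryab and Apela, had a ratio of 2.08, with all 13 genes higher. It also carried 7 of 9 injured proximal tubule markers, and Spp1, Fgg and C3 were among its leading genes. It carried 18 of 20 proximal tubule markers, but these made up 1.42% of non-mitochondrial UMIs in its I-PpoI cells and 0.0375% in its wild-type cells. The latter is less than the 0.0713% of wild-type endothelial-like cells, so the libraries may hold different cells in this cluster. Without this cluster, a choice made after seeing the data, the class had a log2 ratio of -0.07 over 44 and 1354 cells. At a limit of 25% mt- UMIs per cell, the class value turned to a log2 ratio of 0.14 over 23 and 758 cells, and at clustering resolution 2 it was -0.07 over 45 and 1357 cells. The direction in proximal tubule-like cells thus depended on which cells were kept and grouped.

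The nuclear members were lower together with the mt- members in some classes and not in others. In endothelial-like cells 33 of 72 measured nuclear members were higher and 39 lower, with a median log2 ratio of -0.03 (-0.08 to 0.06, over members), beside -0.06 over 10376 non-mitochondrial genes. At 1.5-fold, 1 member was higher (12.1% of all genes were) and 2 were lower (16.1% of all genes were). The members named by the interval nearest to 1 were Ndufc2, Atp5l, Ndufa12, Uqcrh and Ndufa6 on the higher side, and Ndufs7, Ndufc1, Ndufa13, Ndufa4 and Cox7a2 on the lower. Ndufs7, an iron-sulfur subunit of complex I, had 85.1 CPM against 157 (ratio 0.543, 0.456 to 0.646). Ndufc2, an accessory subunit of complex I, had 365 against 254 CPM (1.44, 1.30 to 1.59).

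In macrophage-like cells 48 of 74 nuclear members were higher and 26 lower, with a median log2 ratio of 0.13 (0.04 to 0.22), beside -0.09 over all genes. At 1.5-fold 3 members were higher (18.1% of all genes) and 3 lower (22.4%). Cox8a, a small complex IV subunit, had 890 against 630 CPM (1.41, 1.29 to 1.55). Ndufa4, first assigned to complex I and found with complex IV, had 269 against 438 CPM (0.614, 0.549 to 0.687). Of the 184 wild-type cells, 131 lay in a cluster with 9 I-PpoI cells. In the mixed cluster of this class (717 and 26 cells) the median was -0.10. Fibroblast-like cells (288 I-PpoI and 28 wild-type cells) had a median of 0.22 and T cell-like cells one of -0.07, beside -0.22 and -0.06 over all genes. B and plasma cell-like cells (30 of each library) had -0.59, beside -1.08 over all genes. The mt- ratio of 0.438 in this class is to be read beside that same -1.08, which is on the log2 scale.

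In proximal tubule-like cells 51 of 75 nuclear members were higher and 24 lower. Of the 287 I-PpoI cells of this class, 243 were in cluster 6, which also carried 7 of 9 injured proximal tubule markers. The median log2 ratio was 0.17 (0.08 to 0.22), beside -0.27 over all genes. At 1.5-fold 2 members were higher (14.7% of all genes) and 2 lower (35.1%). Higher members included Atp5g2 (703 against 469 CPM, 1.50, 1.38 to 1.63), Cox7a2l (291 against 178), Cox5b (1198 against 846) and Cox6b2 (40.4 against 9.04). Lower members included Ndufs1, the largest complex I subunit, at 103 against 190 CPM (0.543, 0.438 to 0.668), and Uqcrfs1 at 378 against 485. The ATP synthase subunits Atp5a1, at 900 against 1102, and Atp5b, at 1297 against 1547, were also lower. The median turned to -0.02 when each cell was thinned to 1000 UMIs and to -0.03 as a mean of per-cell shares. These I-PpoI cells had a median of 1716 UMIs against 3415, 0.845% Malat1 (a nuclear RNA) against 4.60%, and 14.3% ribosomal protein transcripts against 6.75%. Proximal tubule markers were at 2.06% against 6.72%, and the median was 0.20 without cluster 6. The part of these values in the result was not tested.

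Injured proximal tubule-like cells of the I-PpoI library were set against wild-type proximal tubule-like cells. Of 75 nuclear members 68 were lower, with a median log2 ratio of -0.45 (-0.53 to -0.36), beside 0.15 over all genes. At 1.5-fold no member was higher (29.1% of all genes) and 24 were lower (18.0% of all genes). Cox7a1 had 6.79 against 39.2 CPM (0.173, 0.111 to 0.259), Ndufs1 72.3 against 190 and Uqcrfs1 230 against 485. Atp5g2, at 618 against 469 CPM, and Cox7a2l, at 205 against 178, were on the other side. The mt- share was 8.95% against 24.1% (ratio 0.372), with all 13 genes lower. These cells were the deeper ones (median 18282 UMIs against 3415), and Malat1 was at 4.88% against 4.60%.

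Principal cell-like cells had lower values in both genomes. Of 74 nuclear members 72 were lower, with a median of -0.53 (-0.57 to -0.45), beside 0.03 over all genes. At 1.5-fold 0 members were higher (16.3% of all genes) and 24 were lower (15.5% of all genes). Cox7a1 had 82.3 against 234 CPM (0.352, 0.280 to 0.439), Atp5g1 1051 against 1981 and Ndufa5, an accessory subunit of complex I, 662 against 1227. Cox7a2l was higher, at 381 against 256 CPM (1.49, 1.31 to 1.69). The mt- share was 10.1% against 17.3%. The cluster carried all 8 markers of intercalated cells beside all 8 of principal cells. With no mt- limit these separated, and nuclear members were then at 6.13% against 6.75% in principal cell-like cells and 5.62% against 10.4% in intercalated cell-like cells. The mt- members were then at 13.8% against 16.1% in principal cell-like cells and 9.20% against 28.1% in intercalated cell-like cells. In both genomes the wider gap thus lay in the intercalated cell-like cells.

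In thick ascending limb-like cells 61 of 73 nuclear members were lower, with a median of -0.19 (-0.26 to -0.14), beside -0.36 over all genes. At 1.5-fold 0 members were higher (12.9% of all genes) and 6 were lower (41.1%). Ndufs1 had 23 and 488 UMIs, or 111 against 335 CPM (0.330, interval 0.21 to 0.50). Atp5b had 2042 against 3221 CPM and Atp5a1 1504 against 2396, while Cox4i1 had 3210 against 3154 and Cox7c 4450 against 4301. The 85 I-PpoI cells had a median of 1691 UMIs and 0.436% Malat1, against 1873 and 2.57% in the wild-type library. Of the 330 wild-type cells, 78 lay in a cluster with 1 I-PpoI cell. At resolution 2, a cluster with the same leading genes (78 wild-type cells) had a median of 20015.5 UMIs. In the cluster that both libraries shared at that resolution (64 and 215 cells), nuclear members were at 10.9% against 14.1%. The part of these values in the result was not tested.

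The Lcn2-led cluster gave the widest gap, against wild-type thick ascending limb-like cells. Of 74 nuclear members 73 were lower, with a median of -1.57 (-1.66 to -1.50), beside 0.17 over all genes. At 1.5-fold 0 members were higher (32.2% of all genes) and 71 lower (19.7%). Cox7a1 had 13.7 against 125 CPM (0.110, 0.0785 to 0.151), Ndufs1 58.9 against 335, Atp5g1 642 against 3072, Atp5k 577 against 2462 and Atp5a1 586 against 2396. Those least apart were Cox7a2l, at 256 against 346 CPM, and Atp5g2, at 686 against 1009. Atp5s was the 1 higher member, with 58 and 17 UMIs (1.36, 0.782 to 2.49). The mt- share was 8.82% against 31.7% (ratio 0.278), with all 13 genes lower. The cluster was deeper (median 13744 UMIs against 1873), and because it was unnamed the comparison may set different cells side by side. The wild-type side again included the 78 cells from a cluster with 1 I-PpoI cell. With no mt- limit, a cluster with these leading genes was named thick ascending limb. It held 192 I-PpoI and 22 wild-type cells, in which nuclear members were at 3.85% and 10.2% and mt- members at 8.44% and 21.5%.

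Mural-like cells of the I-PpoI library had 68 of 74 nuclear members lower, with a median of -0.41 (-0.49 to -0.35), beside -0.10 over all genes. At 1.5-fold 0 members were higher (12.6% of all genes) and 18 lower (17.6%). The lowest was Cox4i2 (ratio 0.255, 0.184 to 0.349), followed by Ndufa4l2 (0.415, interval 0.34 to 0.50), Cox8a (1058 against 1901 CPM) and Ndufc1 (248 against 496 CPM). Cox4i1 had a ratio of 0.915 (0.775 to 1.08). The class mixes mesangial, vascular and renin cells, and its makeup in each library was not separated.

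**Figure D3:**
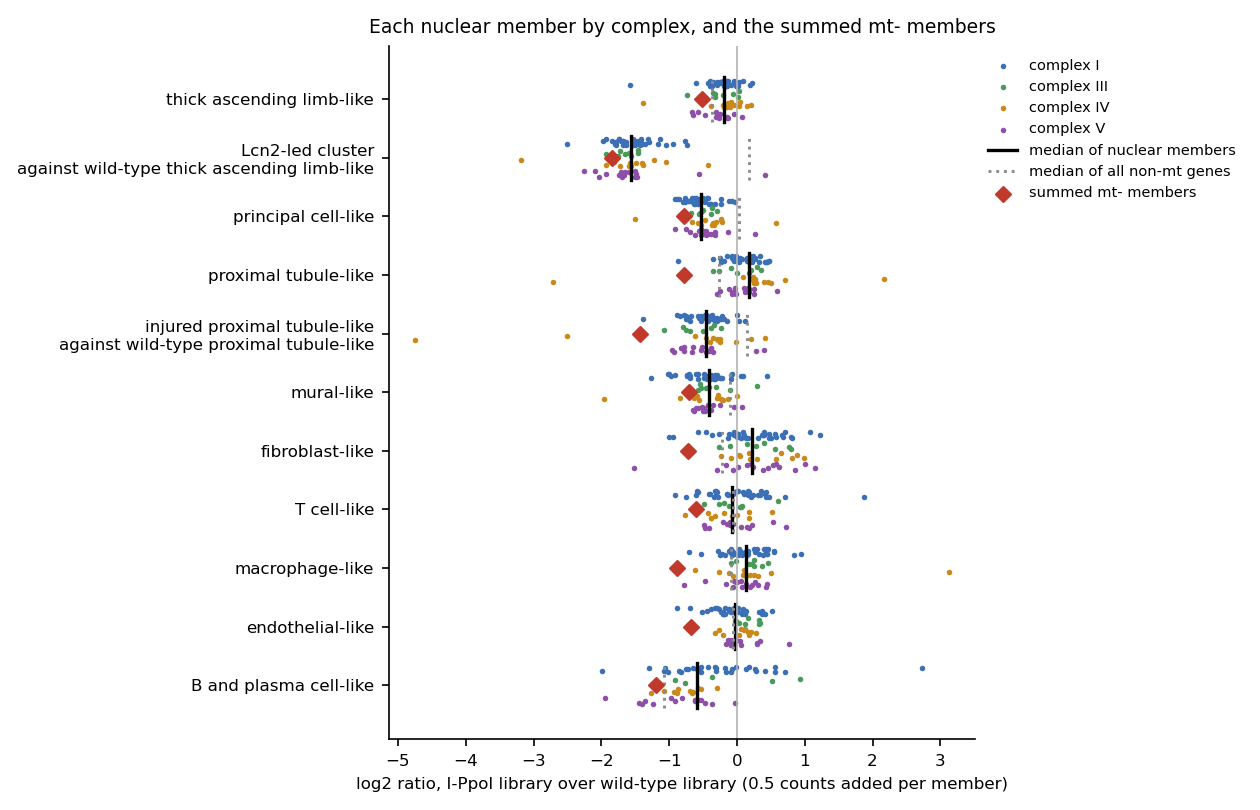
Log2 ratio of I-PpoI over wild-type for each measured nuclear member (small points, coloured by complex), with the median of the nuclear members (black line), the median of all non-mitochondrial genes (dotted line) and the summed mt- members (red diamond). The red diamond lies left of 0 in each row, whereas the black line lies near or right of 0 in proximal tubule-like, fibroblast-like, T cell-like, macrophage-like and endothelial-like cells, and at -1.57 in the Lcn2-led cluster.

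A few nuclear members stood on the same side of the others in each of these 11 comparisons, which share libraries and, in part, cells. Atp5g2, Ndufa12 and Cox4i1 lay above the median member in 11 of 11, by a median of 0.39, 0.21 and 0.18 on the log2 scale. Ndufab1, the acyl carrier protein of mitochondria, lay below it in 11 of 11, by a median of -0.34. Ndufa4, Atp5b and Atp5k lay below it in 10 of 11. These members were named after their values were seen.

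The makeup of the mt- transcripts also differed between the libraries, for 10 of the 13 genes in the same direction in each of the 9 classes. The cytochrome c oxidase subunit mt-Co1 took a median of 17.5% of the mt- UMIs over the 9 I-PpoI classes (13.8% to 19.0%) and 13.2% over the wild-type classes (11.0% to 16.9%), and it was higher in 9 of 9. The complex I subunits mt-Nd2 (medians 3.40% and 5.00%) and mt-Nd4 (4.94% and 6.70%) and cytochrome b, mt-Cytb (8.37% and 10.2%), were lower in 9 of 9, each with counting intervals apart in all 9. The ATP synthase subunit mt-Atp6 had 23.8% and 23.1%, and was higher in 8 of 9. In endothelial-like cells mt-Co1 was thus at a log2 ratio of -0.09 of all UMIs, while mt-Nd2 was at -1.28, mt-Cytb at -1.15 and mt-Nd4 at -1.11. Shares sum to 100% by construction, and all classes of a library passed through 1 preparation. Barcodes over the 50% limit had the same directions: mt-Co1 at 15.2% and 11.4%, mt-Nd2 at 3.72% and 5.43%. The genes mt-Atp8 and mt-Atp6 overlap on the genome (M, 7766 to 7969 and 7927 to 8607), as do mt-Nd4l and mt-Nd4 (9877 to 10173 and 10167 to 11544), so their UMIs may not be fully separable.

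**Figure D4:**
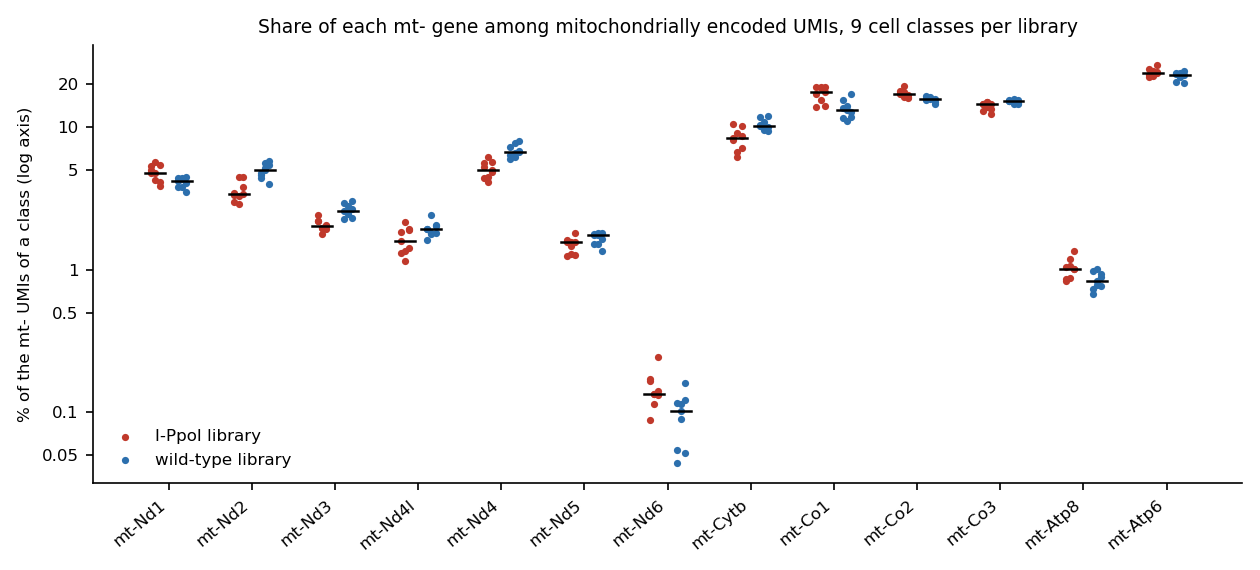
Percent of the mt- UMIs of a class taken by each of the 13 mt- genes (log axis), with 1 point per cell class, 9 classes per library. Red is the I-PpoI library, blue the wild-type library, and black lines are medians over classes. Points for mt-Co1 lie higher in the I-PpoI library, and those of mt-Nd2, mt-Nd4 and mt-Cytb lie lower.

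Other mitochondrial gene lists were read beside the subunits. Succinate dehydrogenase, cytochrome c and electron transfer flavoprotein genes (9 listed) were all lower in principal cell-like cells (median -0.60, beside 0.03 over all genes), injured proximal tubule-like cells (-0.66, beside 0.15) and the Lcn2-led cluster (-1.87, beside 0.17). In thick ascending limb-like cells their median of -0.38 was near the -0.36 of all genes. In macrophage-like cells 8 of 9 were higher (0.17, beside -0.09). Of 17 citric acid cycle genes, 16 were lower in proximal tubule-like cells (-0.43, beside -0.27 over all genes) and 17 in thick ascending limb-like cells (-0.67, beside -0.36). Assembly factors were mixed in proximal tubule-like cells (22 of 45 higher, median -0.01, beside -0.27). Nuclear regulators of mitochondria had 11 of 13 lower in proximal tubule-like cells (median -0.76, beside -0.27) and 8 of 10 lower in thick ascending limb-like cells (-1.54, beside -0.36). Ppargc1a, a coactivator of mitochondrial biogenesis, had log2 ratios of -1.26 and -1.94 there and -2.17 in the Lcn2-led cluster, and Esrra, which binds the receptor half-site above, had -0.79 and -1.43 in the same 2 classes. Of 14 glycolysis genes, 11 were higher in macrophage-like cells (0.36, beside -0.09) and 11 were lower in the Lcn2-led cluster (-0.96, beside 0.17). The lists of mitochondrial DNA and RNA maintenance, of import and carriers, and of mitochondrial stress had medians of -0.41, 0.18 and -0.11 in proximal tubule-like cells, beside the same -0.27.

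Over all barcodes, the limit on mt- UMIs included, nuclear members did not simply mirror mt- transcripts. The bins pool all cell classes, which differ in both shares, and the part of class makeup in the curve was not tested. In the wild-type library their share of non-mitochondrial UMIs was 2.21% in barcodes with under 5% mt- UMIs, 7.51% (7.47 to 7.54) at 30 to 40% and 2.05% above 80%. In the I-PpoI library it was 2.10%, then 5.47% at 20 to 30% and 0.724% at 70 to 80%. Barcodes over 50% held 31.6% of the mt- UMIs of the I-PpoI library and 56.2% of those of the wild-type library, at medians of 48 and 104 genes.

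**Figure D5:**
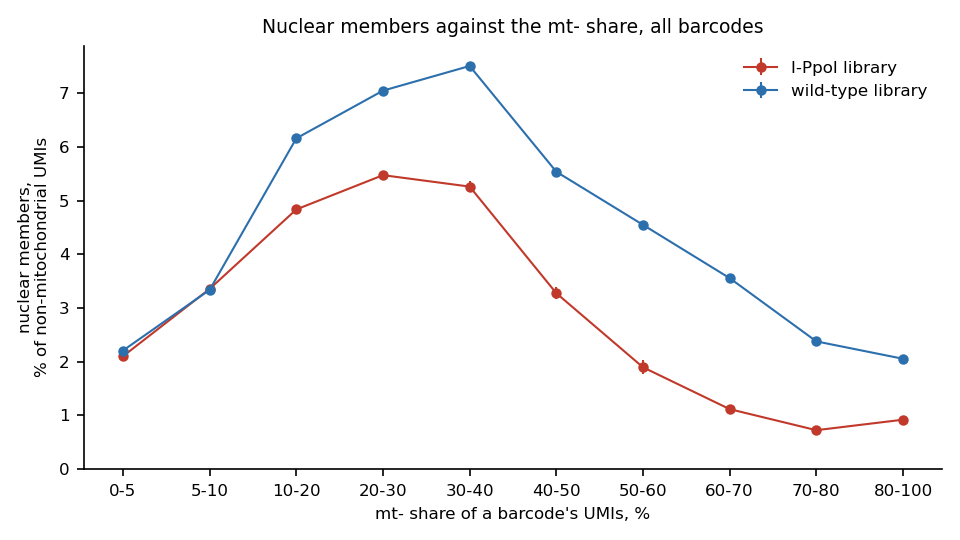
Nuclear members as a percent of non-mitochondrial UMIs (y axis) in bins of the mt- share of a barcode (x axis, percent of UMIs), over all barcodes before any limit, with 95% counting intervals. Red is the I-PpoI library and blue the wild-type library, and both curves peak between 20% and 40% and are lower above 50%. Each bin pools all cell classes.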

How the data were processed

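UMI counts per gene and barcode were used as deposited. Per the labels, the authors made the libraries with a Chromium 3.1 chemistry kit for 3' ends, aligned to mm10 with Cell Ranger 3.1 and used Seurat 3, while per the file headers the count matrices came from Cell Ranger 6.0.2. The members and gene lists were chosen with earlier results of these data known.

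Cells with at least 200 genes and at most 50% mt- UMIs were kept. Scrublet's own threshold marked 30 and 5 barcodes, so the 4% of barcodes with the highest doublet scores per library were left out (142 and 123). Cells were clustered with scanpy 1.11.5 (2000 variable genes, 30 components, 15 neighbours, Leiden resolution 1) without member genes, and clusters were named from 21 marker lists. Classes with at least 20 cells per library were compared, over members with at least 20 UMIs there. Median depth of kept cells was 6647 UMIs in the I-PpoI library and 3486.5 in the wild-type library.

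Counts were summed per class and library. Ratios carry exact 95% conditional binomial intervals, levels exact Poisson and shares exact Clopper-Pearson ones, and log2 ratios had 0.5 counts added. The ratio script was tested on simulated data. Members named were all mt- genes, in each comparison the 5 highest and 5 lowest by the interval bound nearest to 1, the highest and lowest 3 per complex by level, paralog groups, and members 4-fold over the median class. Other genes came from 8 lists: succinate dehydrogenase and cytochrome c, assembly factors, mitochondrial DNA and RNA maintenance, regulators, citric acid cycle, glycolysis, import and carriers, and stress. Gene positions came from GENCODE release 21. Alternatives covered the mt- and gene limits, doublets, thinning, clustering, class naming, weights and totals.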

Additional observations from a re-analysis of the deposited data

Results flagged for a closer look

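The mt- members were lower in the I-PpoI library in all 9 classes compared, whereas the median of the nuclear members differed in sign between classes. Their median log2 ratio was 0.22 in fibroblast-like (-0.22 over all genes), 0.17 in proximal tubule-like (-0.27) and 0.13 in macrophage-like cells (-0.09). It was -0.19 in thick ascending limb-like (-0.36 over all genes), -0.41 in mural-like (-0.10), -0.53 in principal cell-like (0.03) and -0.59 in B and plasma cell-like cells (-1.08). In thick ascending limb-like and B and plasma cell-like cells the members thus lay above the median gene. Of the values above 0, the proximal tubule-like one was below 0 in 5 of 15 alternatives. The macrophage-like one fell to -0.102 in clusters shared by both libraries. The fibroblast-like one kept its sign but rests on 28 wild-type cells. The differences between classes were not tested, since each group has 1 library.

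Within cluster 6, led by Aqp1, Cryab and Apela, the mt- share was higher in the I-PpoI library by a ratio of 2.08. That cluster held 243 I-PpoI and 39 wild-type cells, in which proximal tubule markers made up 1.42% and 0.0375% of non-mitochondrial UMIs. The difference from the other clusters was not tested.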

How the results depend on the processing

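All values here are log2 ratios, I-PpoI over wild-type. For mt- members in proximal tubule-like cells (-0.781 as reported), the value was 0.142 at a 25% mt- limit, a reversal over 23 and 758 cells. It was -0.947 with cells thinned to 1000 UMIs, -0.403 with classes from marker scores, -1.034 in clusters shared by both libraries, -0.743 with doublets kept, -1.027 as a mean of per-cell shares, -0.502 with no limit and -0.074 at resolution 2. The shared clusters of this class were cluster 6 (243 and 39 cells) and cluster 15 (28 and 596 cells). Neither was that low alone: cluster 6 was higher in the I-PpoI library (plain ratio 2.08), and cluster 15 differed little. The pooled -1.034 sets mostly cluster 6 cells of the I-PpoI library against mostly cluster 15 cells of the wild-type library. Joining injured cells gave -1.267 and leaving out the Aqp1-led cluster -0.071, both chosen after seeing the data. For nuclear members there (0.174), the sign reversed with thinning (-0.022), shared clusters (-0.048, pooled in the same way), per-cell means (-0.027), the 25% limit (-0.079) and injured cells joined (-0.292). It was 0.283 with no limit, 0.354 per all UMIs and 0.294 without ribosomal and haemoglobin genes. In endothelial-like cells, mt- members (-0.672) were at -0.608 thinned, -0.481 in shared clusters, -0.653 with doublets kept, -0.569 as per-cell means, -0.594 at the 25% limit, -0.746 with no limit, and -0.604 and -0.636 at resolutions 0.5 and 2. Nuclear members (-0.033) were at -0.184 thinned and -0.185 as per-cell means, and reached 0.034 at the highest. In macrophage-like cells, mt- members (-0.890) were at -0.844 by marker scores, -0.924 in shared clusters, -0.905 with doublets kept, -0.869 at the 25% limit and -1.037 with no limit, and nuclear members (0.131) reversed to -0.102 in shared clusters. The cause was not tested.

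In the other 6 classes the mt- value stayed below 0 in every alternative run but moved, between -2.148 and -0.374 in B and plasma cell-like, -1.877 and -0.362 in thick ascending limb-like, -0.935 and -0.224 in principal cell-like, -0.872 and -0.396 in mural-like, -0.869 and -0.576 in fibroblast-like and -0.691 and -0.494 in T cell-like cells. There the nuclear value kept its sign in every alternative for B and plasma cell-like, fibroblast-like, mural-like, principal cell-like and thick ascending limb-like cells, the last between -1.479 and -0.005 and principal cell-like cells between -0.856 and -0.174. T cell-like cells ranged from -0.246 to 0.056. At resolution 2 and with no mt- limit, the cluster led by Lcn2 (198 and 192 I-PpoI cells) was itself named thick ascending limb. The thick ascending limb-like ranges above, of both genomes, thus include alternatives in which the class held other cells. At a minimum of 500 genes, proximal tubule-like cells gave no value, with under 20 I-PpoI cells, nor did fibroblast-like cells, and at the 25% limit thick ascending limb-like cells gave none. No paired analysis was possible because each group has 1 library. Low depth limits thick ascending limb-like and proximal tubule-like I-PpoI cells most, at medians of 1691 and 1716 UMIs, and counting intervals do not cover differences between mice.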
